A study of Mus musculus with 20 samples.

Results

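Hepatocyte organoids (Hep-Org) were set against liver that was not regenerating. The comparison took the 2 Hep-Org libraries and 6 of the 18 liver libraries of a mouse RNA sequencing series of 20 libraries, and it covered the 11576 of 54532 listed genes that reached 1 FPKM (fragments scaled to the length of the gene and to the size of the library) in at least 2 of these 8 libraries. The Hep-Org were passaged 3-dimensional cultures grown from hepatocytes in Matrigel, a gel of basement membrane proteins. The liver libraries were 2 of undamaged liver, 2 taken 14 d and 2 taken 21 d after partial hepatectomy (PHx), the surgical removal of 70% of the liver. The labels give the strain C57BL/6, no transgene and no drug, and describe the liver samples as hepatocytes isolated fresh, while the second replicates of 14 d and 21 d carry no cell type label. By their sample numbers, the second replicates of all PHx times were taken as a second submission. Hep-Org and the other liver libraries were taken as the first. Passage number, sex and age are not given, nor is it stated whether the replicates of a group came from different mice or cultures. The spread behind each p-value is thus that between these libraries, and within a liver group it may be technical. The Hep-Org replicates differed in Xist and Y-linked transcripts, as given below, so they were not technical replicates of the same culture.

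Hepatocytes make most plasma proteins, bile acids, urea and glucose of the body, and they hold most enzymes of drug metabolism. In liver they rest outside the cell cycle, next to bile duct cells, endothelial cells, stellate cells and Kupffer cells, the resident macrophages. In culture on matrix, hepatocytes are known to lose part of this programme, and organoid media with growth factors are used to make them divide.

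Differences below are log2 differences of FPKM + 1, Hep-Org minus liver, with their standard error (SE). Calls required a log2 difference of at least 1 in size together with an adjusted p under 0.05 (limma, Benjamini-Hochberg over all 11576 genes). Levels are FPKM, a value per length, given for both Hep-Org libraries and then as the lowest, median and highest of the 6 liver libraries. The reads recovered from the values came to 22.9 M and 24.3 M in Hep-Org and to 13.7 M to 25.5 M in liver. The value of 1 read implied library sizes 1.91 and 2.09 times the recovered reads in Hep-Org, against 0.516 to 1.15 times in liver, so the deposited values carry a scaling beyond plain FPKM that sets Hep-Org lower, and how it was made is not given in the sources used here. Factors from a trimmed mean of gene ratios between libraries, computed on the recovered reads, ran the same way. They were 1.76 and 1.86 in Hep-Org and 0.473 to 1.02 in liver. The voom fit below uses these factors, so it does not check this scaling. FPKM summed to 184765 and 167676 in the Hep-Org libraries, against 392291 to 988797 in the liver libraries, with the highest sum in undamaged replicate 2. The deposited scaling left the median difference of all genes at 0.01, and rescaling by the median of ratios hardly moved it. Setting every library to the same FPKM sum moved it to 1.15 and gave 6364 genes higher and 939 lower in place of 1547 and 1911, so list directions and called genes that this turns are marked below. Across the tested genes, Spearman's rho was 0.950 between the Hep-Org libraries, 0.549 to 0.585 between a Hep-Org and a liver library (12 pairs), and 0.858 to 0.957 between liver libraries, a description in which library and gene length are shared.

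The labels were first set against marker genes of hepatocytes and of bile duct cells. As deposited, all 5 hepatocyte markers fell in Hep-Org and all 5 bile duct markers rose, so the label gives their origin, while the markers of a mature hepatocyte were reduced. Albumin, Alb, was at 3132 and 86.4 FPKM in the Hep-Org libraries, against 23936, 43478 and 61188 FPKM in liver (lowest, median and highest of 6), a difference of -6.28 ± 1.11 (adjusted p = 0.00164) that was not called against undamaged liver alone. Cps1, the entry enzyme of the urea cycle, was at 0.103 and 0.11 FPKM in Hep-Org, against 503, 809.6 and 1093 FPKM in liver (-9.42 ± 0.36, adjusted p = 2.57e-07). The hepatocyte transcription factor Hnf4a remained far above background at 43.5 and 37.9 FPKM in Hep-Org, against 59.5, 87.7 and 127 FPKM in liver, and its difference of -1.05 ± 0.33 (adjusted p = 0.0271) was near the size threshold and turned to 0.42, not called, at the same FPKM sum. Ttr and Apoa1, carriers of thyroid hormone and of lipid in plasma, fell by 4.82 and 4.06 on the log2 scale. For the duct keratin Krt19 the levels were 9.8 and 17.3 FPKM in Hep-Org, against 0, 0.201 and 2.55 FPKM in liver. The surface protein Epcam stood at 6.89 and 5.24 FPKM in Hep-Org, against 0.02, 0.0756 and 0.541 FPKM in liver, and the duct factor Sox9 at 10.7 and 10.1 FPKM, against 1.36, 1.52 and 2.51 FPKM. None of these 10 genes overlapped between the Hep-Org and the liver libraries, in a table where both Hep-Org libraries lay above all liver libraries for 28.3% of genes and below all of them for 28.6%. Krt19 and Epcam did not reach 1 FPKM in 2 liver libraries. They entered the test only through their level in Hep-Org, so their rise is not read as a separate result. In such bulk RNA, fewer cells of a type and less RNA per cell cannot be told apart.

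**Figure D1:**
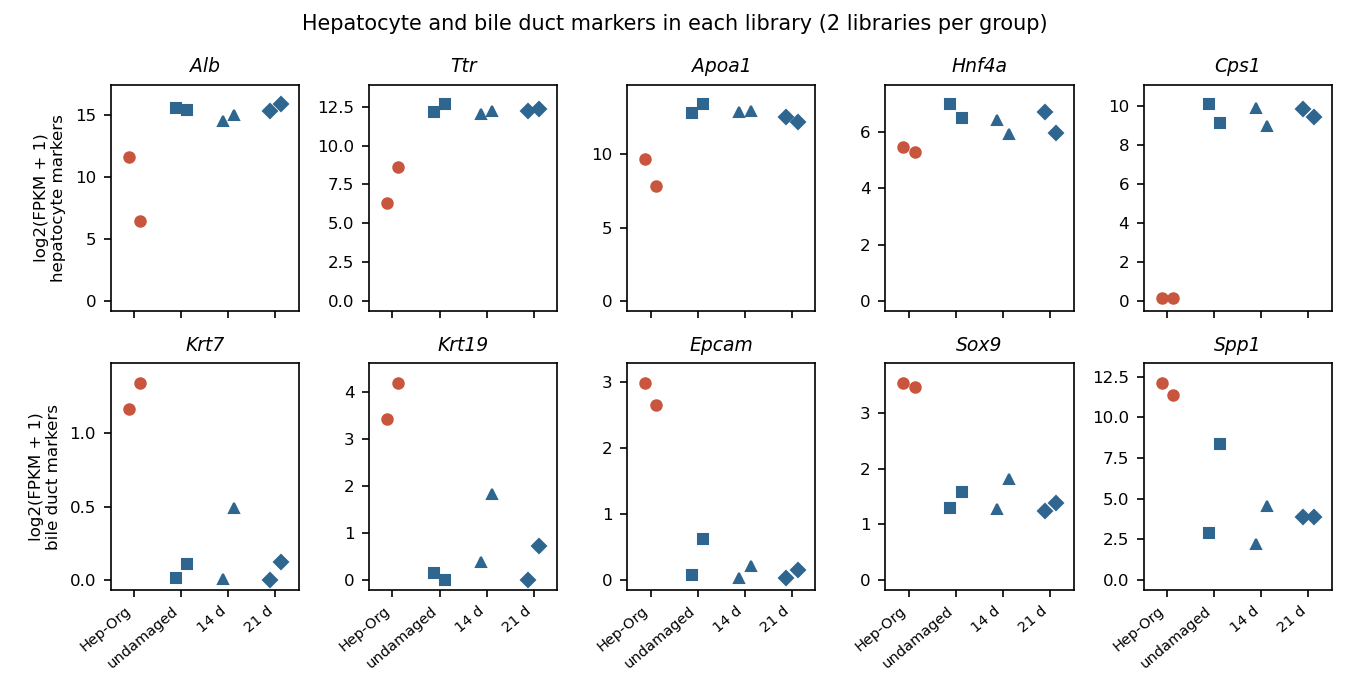
Level of 5 hepatocyte markers (top) and 5 bile duct markers (bottom) on the log2(FPKM + 1) scale in each library, with 2 libraries each of Hep-Org (circles), undamaged liver (squares), and liver at 14 d (triangles) and 21 d (diamonds) after PHx. Both Hep-Org libraries lie below every liver library for each hepatocyte marker and above every liver library for each bile duct marker.

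Transcripts of dividing cells were higher in Hep-Org and low in all 6 liver libraries. Mki67, present in dividing cells, was at 4.7 and 3.46 FPKM in Hep-Org, against 0.136, 0.386 and 1.02 FPKM in liver (1.84 ± 0.24, adjusted p = 0.000263). Top2a, the topoisomerase of mitotic chromosomes, was at 5.18 and 3.5 FPKM in Hep-Org, against 0.0704, 0.436 and 1.03 FPKM in liver. The highest liver value of both genes was that of undamaged replicate 2. Neither gene reached 1 FPKM in 2 liver libraries, so both entered the test only through Hep-Org. Their levels are thus the description, and the p-value adds no support.

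Of the 11576 genes, 1547 (13.4%) were higher in Hep-Org and 1911 (16.5%) lower, together 29.9%. Every count of called list members below is to be read beside these shares. At any size of difference, 5456 genes (47.1%) had an adjusted p under 0.05. The decreases were the larger ones. The median called increase was 1.46 and the median called decrease was -1.92. A difference of at least 5, a factor of 32, was reached by 24 genes upward and by 188 genes downward, and one of at least 3 by 144 upward and 503 downward. Without Hep-Org replicate 1 the calls numbered 1211 higher and 1318 lower, and without Hep-Org replicate 2 they numbered 1430 higher and 1425 lower.

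**Figure D2:**
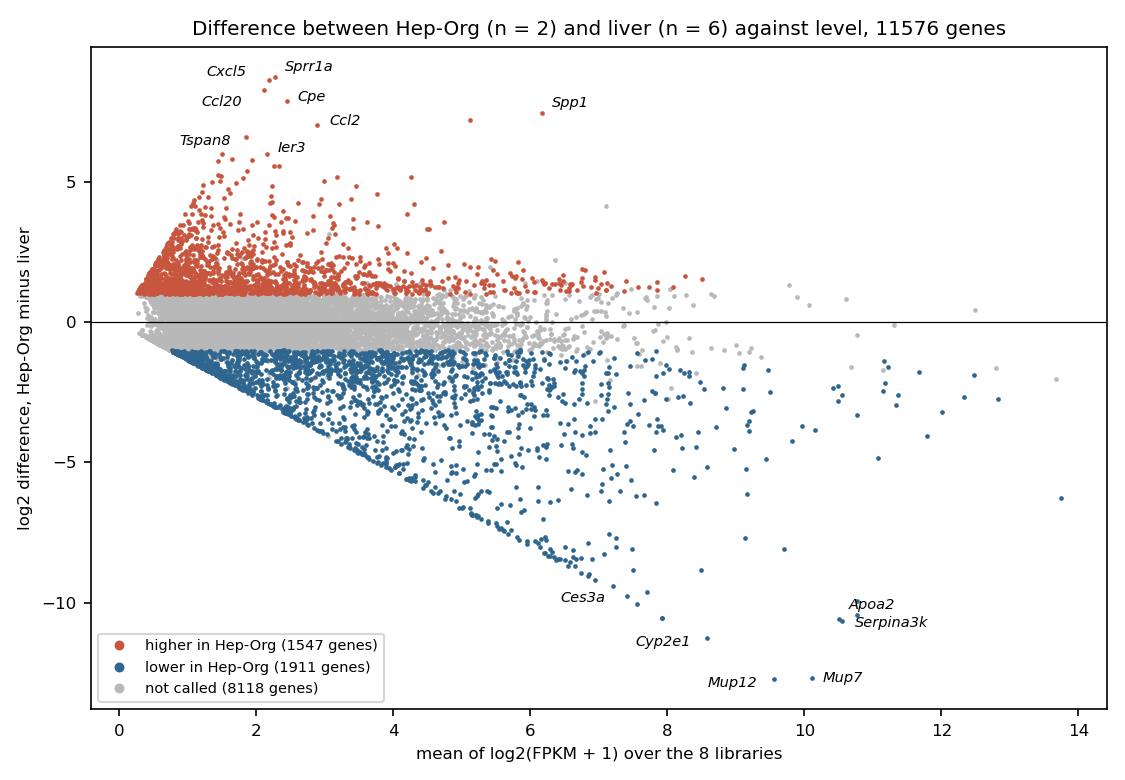
Log2 difference (Hep-Org minus liver, vertical axis) against the mean of log2(FPKM + 1) over the 8 libraries (horizontal axis) for 11576 genes, coloured by call. The 1911 lower genes reach -12.7 (Mup12 and Mup7), while the 1547 higher genes end at 8.74 (Sprr1a).

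Among the 12 largest increases without overlap between the groups were those of Sprr1a, Cxcl5 and Ccl20. Sprr1a (ENSMUSG00000050359, chromosome 3, 92483952 to 92485895, GRCm38/mm10), a small proline-rich protein of the cornified envelope of squamous epithelium, was at 500.3 and 412 FPKM in Hep-Org, against 0, 0 and 0.228 FPKM in liver (8.74 ± 0.16, adjusted p = 6.78e-09). The neutrophil-attracting chemokine Cxcl5 (ENSMUSG00000029371, chromosome 5, 90759360 to 90761624) was at 224 and 724 FPKM in Hep-Org, against 0, 0 and 0.0687 FPKM in liver (8.63 ± 0.35, adjusted p = 3.13e-07). Ccl20, the ligand of the receptor CCR6, was at 228 and 454 FPKM in Hep-Org, against 0, 0 and 0.129 FPKM in liver (8.29 ± 0.23). These 3 genes were at or near 0 in all 6 liver libraries, and the fitted difference of such a gene depends on the pseudocount. Spp1, the matrix protein osteopontin, was at 4416 and 2695 FPKM in Hep-Org, against 3.63, 13.7 and 333 FPKM in liver (7.45 ± 1.32, adjusted p = 0.00168). Its liver libraries were wide apart, with undamaged replicate 2 at the top, and against undamaged liver alone Spp1 was not called. Cpe, a carboxypeptidase that trims peptide hormones, was at 408 and 270.4 FPKM in Hep-Org, against 0, 0.39 and 1.35 FPKM in liver. The monocyte-attracting Ccl2 was at 249 and 332 FPKM in Hep-Org, against 0.171, 0.984 and 3.07 FPKM in liver. The rest of the 12 were the tetraspanin Tspan8 (6.61 ± 0.27), the immediate early gene Ier3 (6.01 ± 0.22), the liver-intestine cadherin Cdh17 (5.99 ± 0.27), the first enzyme of serine synthesis Phgdh (5.82 ± 0.32), the cytokine Ltb (5.80 ± 0.34) and the chemokine Cxcl3 (5.76 ± 0.21).

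The promoters of the first 3 of these genes with an entry are shown because the genes moved together. The sequences are the 250 bases before the RefSeq start (GRCm38.p6), read 5′ to 3′ on the gene's strand, and capitals mark any match, on either strand, to 6 motifs, which were the TATA box (TATAAA), AP-1 (TGANTCA), C/EBP (TTGCNNAA), HNF4 (CAAAGTCCA), a direct repeat for HNF4 (by name) and NF-kB (by name).
Sprr1a (chr3:92485882-92486131, minus strand): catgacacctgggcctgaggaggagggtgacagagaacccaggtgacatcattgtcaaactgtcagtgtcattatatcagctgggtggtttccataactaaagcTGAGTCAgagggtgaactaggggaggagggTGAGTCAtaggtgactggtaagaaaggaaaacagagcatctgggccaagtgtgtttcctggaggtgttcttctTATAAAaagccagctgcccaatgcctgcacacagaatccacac
Ccl20 (chr1:83116516-83116765, plus strand): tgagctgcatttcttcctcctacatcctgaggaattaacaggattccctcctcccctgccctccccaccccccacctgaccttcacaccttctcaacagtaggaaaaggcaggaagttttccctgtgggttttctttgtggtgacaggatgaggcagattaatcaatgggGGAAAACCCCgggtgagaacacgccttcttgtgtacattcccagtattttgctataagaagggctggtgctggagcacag
Spp1 (chr5:104434861-104435110, plus strand): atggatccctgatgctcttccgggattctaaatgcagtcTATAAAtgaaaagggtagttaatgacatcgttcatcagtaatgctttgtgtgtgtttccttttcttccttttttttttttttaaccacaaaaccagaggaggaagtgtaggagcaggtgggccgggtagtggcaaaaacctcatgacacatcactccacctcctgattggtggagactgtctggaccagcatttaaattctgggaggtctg
Sprr1a held AP-1 matches 146 and 116 bases before the start, and a TATA box 43 bases before it. Ccl20 held an NF-kB match 80 bases before the start. Spp1 held a TATA box 211 bases before the start. Over all 27025 promoters of the table, 6.87% held AP-1, 4.6% NF-kB and 13.0% a TATA box in this window. These are matches of letters in a window. Only 72.9% of the tested genes had an entry, under the 80% needed, so a comparison of motif shares between called genes and other genes would be void and is not given.

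The 12 largest decreases without overlap were those of 6 major urinary protein genes, 2 serine protease inhibitors, 2 carboxylesterases, a cytochrome P450 and an apolipoprotein. Mup7 (ENSMUSG00000073842, chromosome 4, 60066469 to 60070475), a pheromone-binding lipocalin secreted into blood and urine, was at 0.82 and 0.266 FPKM in Hep-Org, against 4604, 10013 and 20417 FPKM in liver (-12.69 ± 0.54, adjusted p = 3.57e-07). Mup12 was at 0.0247 and 0 FPKM in Hep-Org, against 3645, 6395 and 11694 FPKM in liver (-12.72 ± 0.47). Mup3, Mup15, Mup17 and Mup22 were also among the 12. The Mup genes are near-identical copies whose reads the counting may have split, so the level of a single copy is uncertain, while neither Hep-Org library exceeded the 9.47 FPKM of Mup3 for any of these 6 copies. Cyp2e1 (ENSMUSG00000025479, chromosome 7, 140763739 to 140774987), a cytochrome P450 that oxidises ethanol, was at 0 and 0.191 FPKM in Hep-Org, against 1536, 2433 and 5314 FPKM in liver (-11.26 ± 0.46, adjusted p = 3.14e-07). Apoa2, an apolipoprotein of high-density lipoprotein, was at 4.43 and 5.34 FPKM in Hep-Org, against 6207, 8624 and 16521 FPKM in liver (-10.60 ± 0.45, adjusted p = 3.38e-07). The protease inhibitors Serpina3k (-10.64 ± 0.60) and Serpina1e (-9.95 ± 0.61) and the carboxylesterases Ces3a (-9.74 ± 0.38) and Ces1c (-9.63 ± 0.34) made up the rest of the 12. The highest Hep-Org value among the 12 was the 20.6 FPKM of Serpina1e in replicate 1, where liver had at least 6656 FPKM.

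The promoters of the first 3 of these genes with an entry, in the same window, build and marking, are shown for contrast with those above.
Mup7 (chr4:60070476-60070725, minus strand): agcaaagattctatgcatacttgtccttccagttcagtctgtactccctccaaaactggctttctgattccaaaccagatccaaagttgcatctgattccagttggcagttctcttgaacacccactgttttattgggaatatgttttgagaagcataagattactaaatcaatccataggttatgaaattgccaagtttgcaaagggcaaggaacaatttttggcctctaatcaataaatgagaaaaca
Cyp2e1 (chr7:140763569-140763818, plus strand): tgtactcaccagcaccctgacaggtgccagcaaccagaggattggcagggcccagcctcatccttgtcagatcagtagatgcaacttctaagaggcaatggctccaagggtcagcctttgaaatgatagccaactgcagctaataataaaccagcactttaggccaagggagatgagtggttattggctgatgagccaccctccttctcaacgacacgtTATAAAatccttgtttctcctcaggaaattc
Apoa2 (chr1:171224804-171225053, plus strand): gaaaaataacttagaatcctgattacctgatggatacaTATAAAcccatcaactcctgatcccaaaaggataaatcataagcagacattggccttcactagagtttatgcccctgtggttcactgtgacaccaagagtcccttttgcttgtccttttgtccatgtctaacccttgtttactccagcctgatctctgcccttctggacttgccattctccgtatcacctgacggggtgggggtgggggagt
Mup7 held none of the 6 motifs in these letters, Cyp2e1 held a TATA box 31 bases before the start, and Apoa2 held a TATA box 212 bases before it.

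A share of the genes was on in one of the groups and at or near 0 in the other. At least 5 FPKM in both Hep-Org libraries and under 0.1 FPKM in all 6 liver libraries was met by 18 genes, and by 15 once predicted genes were left out. Besides Cxcl5, Cdh17 and Cxcl3 these included Guca2b, which encodes the gut peptide uroguanylin (41.8 and 19.9 FPKM in Hep-Org, listed at 0 in all 6 liver libraries). Psrc1, a microtubule-binding protein and p53 target, was at 17.9 and 34.6 FPKM in Hep-Org and at most at 0.082 FPKM in liver. The cytochrome P450 Cyp1b1 was at 5.24 and 57.8 FPKM in Hep-Org and at most at 0.0499 FPKM in liver. The remaining 9 were Itga2, Defb8, Lif, Etv4, Tbx1, Clic6, Gabrp, Stc1 and Fosl1. The reverse pattern was met by 90 genes, and by 78 once predicted genes were left out. Beside Mup copies it held Cyp7a1, the rate-limiting enzyme of bile acid synthesis (0 and 0 FPKM in Hep-Org, against 13.8, 32.3 and 70.1 FPKM in liver), and Igf1, the growth hormone-dependent growth factor (0.0624 and 0.0694 FPKM in Hep-Org, against 50.7, 68.7 and 123 FPKM in liver).

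Among nuclear genes, several of the most abundant transcripts of Hep-Org were those of secreted hepatocyte proteins. Haptoglobin, Hp, which binds free haemoglobin, stood first of the nuclear genes in Hep-Org at 7333 and 7048 FPKM, against 1813, 3872 and 35737 FPKM in liver, and did not pass the test (0.43 ± 1.03, adjusted p = 0.753), though it was called higher at the same FPKM sum (1.93, adjusted p = 0.0319). Hemopexin, Hpx, the haem carrier of plasma, stood behind Hp and Spp1 in Hep-Org at 3552 and 2668 FPKM, against 3297, 8034 and 40919 FPKM in liver (-1.62 ± 0.91, adjusted p = 0.167). Ambp, the precursor of alpha-1-microglobulin, was at 2361 and 2424 FPKM in Hep-Org, against 1508, 2086 and 8131 FPKM in liver, a difference of -0.11 ± 0.63 (adjusted p = 0.897) that turned to 1.38 and passed the test with every library set to the same FPKM sum. For Hp, Hpx and Ambp the groups overlapped, and the highest liver value was in each case that of undamaged replicate 2, in which acute-phase transcripts were high. The rest of the 10 highest nuclear genes in Hep-Org were Spp1, the translation factor Eef1a1, the secreted chaperone Clu, Alb, the ferritin chain Fth1, the acute-phase gene Saa3 and the ribosomal protein Rplp1. The mitochondrial mRNAs mt-Co1, at 4724 and 4409 FPKM, and mt-Nd1, at 2066 and 2222 FPKM in Hep-Org, were at a level among these. Alb took 1.84% and 0.0561% of the nuclear FPKM sum in the Hep-Org libraries, against 5.69% to 17.0% in the liver libraries. The 26 listed plasma protein genes took 9.49% and 5.99% in Hep-Org, against 22.7% to 29.96% in liver. The sum was spread more evenly in Hep-Org, where 210 and 271 genes made up 50% of it, against 20 to 53 genes in liver.

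Plasma proteins and the complement and coagulation cascade fell together but to very different degrees, beside 16.5% of all genes that fell. Of 25 plasma protein genes tested, 22 fell and none rose (median difference -3.67, against 0.01 over all genes). Here and in the 14 other lists with no called increase, limma gave none at an unadjusted p under 0.05 either, nor did voom on the recovered reads. After Apoa2 and Alb, Apoc3, an inhibitor of triglyceride clearance, fell to 24.7 and 20.9 FPKM in Hep-Org, against 1078, 1554 and 3480.4 FPKM in liver (-6.14 ± 0.45, adjusted p = 8.47e-06). Apoh, a phospholipid-binding plasma protein, was at 40.9 and 32.7 FPKM in Hep-Org, against 1053, 1359.9 and 2206 FPKM in liver (-5.22 ± 0.37). Smaller decreases were found in the vitamin D carrier Gc (-1.77 ± 0.43), in Apob (-1.82 ± 0.55) and in the inhibitor Serpina1b (-1.38 ± 0.47), none of which was called at the same FPKM sum, where Serpina1b turned to 0.11. Transferrin, Trf, was at 247 and 243 FPKM in Hep-Org, against 234, 346 and 2663 FPKM in liver, and was not called. Of 28 complement and coagulation genes, 26 fell and 1 rose (median -3.29). The chains of the membrane attack complex component C8 were among the largest decreases, with C8a at 0.195 and 0.0486 FPKM in Hep-Org, against 222, 297 and 710.4 FPKM in liver (-8.20 ± 0.44), and C8b at 0.189 and 0.0154 FPKM in Hep-Org, against 203, 236 and 639 FPKM in liver (-8.01 ± 0.44). Antithrombin, Serpinc1, was at 0.268 and 0.4 FPKM in Hep-Org, against 214, 251 and 539 FPKM in liver (-7.75 ± 0.36, adjusted p = 5.87e-07). The fibrinogen chains Fga (-2.59 ± 0.71), Fgb (-2.26 ± 0.83) and Fgg (-3.29 ± 0.79) fell less and stayed at 229 FPKM or more in both Hep-Org libraries. Complement C3 was at 1953 and 979 FPKM in Hep-Org, against 1014, 1688 and 5139.8 FPKM in liver, and was not called. The gene that rose was Cfb, factor B of the alternative pathway (5.12 and 5.7 FPKM in Hep-Org, against 0.548, 1.82 and 4 FPKM in liver).

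Drug metabolism and bile acid handling were the enzyme groups with the largest decreases beside amino acid breakdown. Of 32 cytochrome P450 and drug metabolism genes, 29 fell and none rose (median -6.01), against 16.5% of all genes that fell. Cyp1a2, which oxidises caffeine, was at 0.0568 and 0.205 FPKM in Hep-Org, against 322, 428 and 576 FPKM in liver (-8.55 ± 0.29, adjusted p = 2.04e-07). Cyp2c50, of a family whose copies can share reads, was at 0 and 0.0269 FPKM in Hep-Org, against 271, 348 and 482 FPKM in liver (-8.48 ± 0.29). Cyp3a11, the main inducible 3a enzyme of mouse liver, was at 1.82 and 37.4 FPKM in Hep-Org, against 202, 418 and 543 FPKM in liver (-5.09 ± 0.83). Por, the electron donor of these enzymes, was not called at 22.7 and 19.2 FPKM in Hep-Org, against 22.3, 47.7 and 166 FPKM in liver. Of 21 bile acid genes, 20 fell and none rose (median -5.02). The uptake transporters Slc10a1 (0.0937 and 0.196 FPKM in Hep-Org, against 153, 289 and 359 FPKM in liver) and Slco1b2 (0 and 0.147 FPKM in Hep-Org, against 177, 242 and 324 FPKM in liver) were near 0 in Hep-Org. The conjugating ligase Slc27a5 fell by 7.89 on the log2 scale (adjusted p = 3.14e-07), and the export pump of the bile canaliculus Abcb11 by 6.63. The synthesis enzymes Cyp7a1 and Cyp8b1 were listed at 0 in both Hep-Org libraries. The 1 member not called was the canalicular conjugate pump Abcc2, at 18.7 and 34.3 FPKM in Hep-Org, against 21.4, 41.2 and 69.1 FPKM in liver.

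Urea cycle and amino acid breakdown fell in 30 of 31 genes, with none higher (median -5.36), against 16.5% of all genes that fell. Bhmt, which remethylates homocysteine, was at 0 and 0.0273 FPKM in Hep-Org, against 444, 482 and 619.9 FPKM in liver (-8.96 ± 0.25, adjusted p = 1.25e-07). Tat, the first enzyme of tyrosine breakdown, was at 0.00952 and 0.0898 FPKM in Hep-Org, against 265, 363 and 495 FPKM in liver (-8.44 ± 0.28). Arg1, the last step of the urea cycle, was at 0.123 and 0.0617 FPKM in Hep-Org, against 272, 437 and 1040.2 FPKM in liver. The steps of the cycle differed in depth, from -9.42 (Cps1), -8.71 (Arg1), -7.68 (Ass1) and -6.31 (Otc) to -3.07 (Asl). The smallest called decrease was that of Glud1, the glutamate dehydrogenase of mitochondria (160.0 and 70.5 FPKM in Hep-Org, against 157, 235 and 282 FPKM in liver, -1.08 ± 0.37), where Hep-Org replicate 1 lay within the liver range and the difference turned to 0.41, not called, at the same FPKM sum. Of 19 genes of gluconeogenesis and glycogen, 13 fell and none rose (median -2.58). Pck1, which commits carbon to glucose, was at 0 and 0.0802 FPKM in Hep-Org, against 157, 341 and 686 FPKM in liver (-8.22 ± 0.52, adjusted p = 3.39e-06), and G6pc, which releases glucose, at 0.0758 and 0.553 FPKM, against 20.9, 94.8 and 245 FPKM. Fbp1, the step between them, was held at a higher level, 27.8 and 50.8 FPKM in Hep-Org, against 341, 380.3 and 575 FPKM in liver (-3.44 ± 0.36).

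Lipid genes fell in part, beside 16.5% of all genes that fell, and here the scaling bears on the direction. Of 25 fatty acid oxidation and ketogenesis genes, 22 fell and none rose (median -2.12), and 7 fell and 1 rose with every library set to the same FPKM sum. Ppara, the nuclear receptor that induces fatty acid oxidation genes, was at 0.197 and 0.246 FPKM in Hep-Org, against 4.05, 10.6 and 28.7 FPKM in liver (-3.23 ± 0.59). Of 18 lipogenesis genes 8 fell and 1 rose, with a median of -0.63 that turned to 0.63 at the same FPKM sum, and 5 and 4 fell without Hep-Org replicate 1 and without replicate 2. Thrsp, a lipogenic regulator, fell to 0.512 and 1.2 FPKM in Hep-Org, against 68.2, 107 and 337 FPKM in liver (-6.04 ± 0.58). Fatty acid synthase, Fasn, was at 22.6 and 32.6 FPKM in Hep-Org, against 23.9, 29.5 and 38.8 FPKM in liver, and was not called. Acaca, the acetyl-CoA carboxylase that feeds it, rose to 6.04 and 11 FPKM in Hep-Org, against 2.26, 3.3 and 5.01 FPKM in liver (1.05 ± 0.28). Of 24 cholesterol genes 12 fell and none rose, with a median of -1.26 that turned to 0.14 at the same FPKM sum, and 7 and 5 fell without Hep-Org replicate 1 and without replicate 2. Insig1, which retains the sterol sensor in the endoplasmic reticulum, was at 27.4 and 13.7 FPKM in Hep-Org, against 113, 149 and 212 FPKM in liver (-2.87 ± 0.34, adjusted p = 0.000171). Of 13 mRNAs encoded in mitochondrial DNA 8 fell (median -2.17), 3 at the same FPKM sum, 1 each without Hep-Org replicate 1 or without Hep-Org replicate 2, and 4 each without undamaged replicate 1 or without 21 d replicate 2. Mitochondrial transcripts took 7.66% and 8.18% of FPKM in Hep-Org, against 8.41% to 20.6% in liver.

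The transcription factors of hepatocytes separated into those that fell and those held at the liver level. Of 24 factors, 13 fell and 1 rose (median -1.30), beside 16.5% and 13.4% of all genes. At the same FPKM sum 7 fell and 6 rose. Creb3l3, a membrane-bound factor of lipid and iron genes, was at 1.95 and 1.62 FPKM in Hep-Org, against 78.5 to 186 FPKM in liver (lowest to highest) (-5.27 ± 0.33, adjusted p = 3.36e-06). Cebpa, a driver of metabolic genes and of growth arrest, was at 13.4 and 11.3 FPKM in Hep-Org, against 71.3, 116 and 181 FPKM in liver (-3.11 ± 0.39). The bile acid receptor Nr1h4 (-3.31 ± 0.28) and the xenobiotic receptors Nr1i2 (-2.96 ± 0.24) and Nr1i3 (-2.24 ± 0.38) fell as well. Foxa1, Foxa2 and Nr5a2 were not called and their groups overlapped, as for Foxa2, at 8.11 and 8.88 FPKM in Hep-Org and 4.99, 9.3 and 18 FPKM in liver. The factor that rose was Gata6, at 3.19 and 3.19 FPKM in Hep-Org, against 0.672, 1.11 and 1.3 FPKM in liver (1.04 ± 0.16).

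Genes that differ by sex in mouse liver were set apart because the liver libraries were male by their Y-linked transcripts and the Hep-Org replicates differed in sex. Xist, which coats the silenced X chromosome, was at 0.00128 and 25.3 FPKM in Hep-Org and at most at 0.0142 FPKM in liver. The Y-linked Ddx3y was at 9.9 and 0.00756 FPKM in Hep-Org, against 10.9, 15.2 and 16.9 FPKM in liver. All 15 male-biased genes fell (median -6.87), among them Slco1a1 (0.195 and 0.674 FPKM in Hep-Org, against 61.2, 112 and 161 FPKM in liver, -6.26 ± 0.35), Mup20 (-8.09 ± 0.71) and Cyp4a12a (-6.39 ± 0.60). Without Hep-Org replicate 1, the library with Y-linked transcripts, 14 of them were called lower, and without replicate 2 all 15 were. Only 4 of 15 female-biased genes passed the filter. Of these, the prolactin receptor Prlr (0.00298 and 0.0064 FPKM in Hep-Org, against 5.05, 7.23 and 11.3 FPKM in liver) and Acnat2 (-3.71 ± 0.78) fell, and Acnat2 lost its call without Hep-Org replicate 1 (adjusted p = 0.0573). The part of sex in these differences was not tested.

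**Figure D3:**
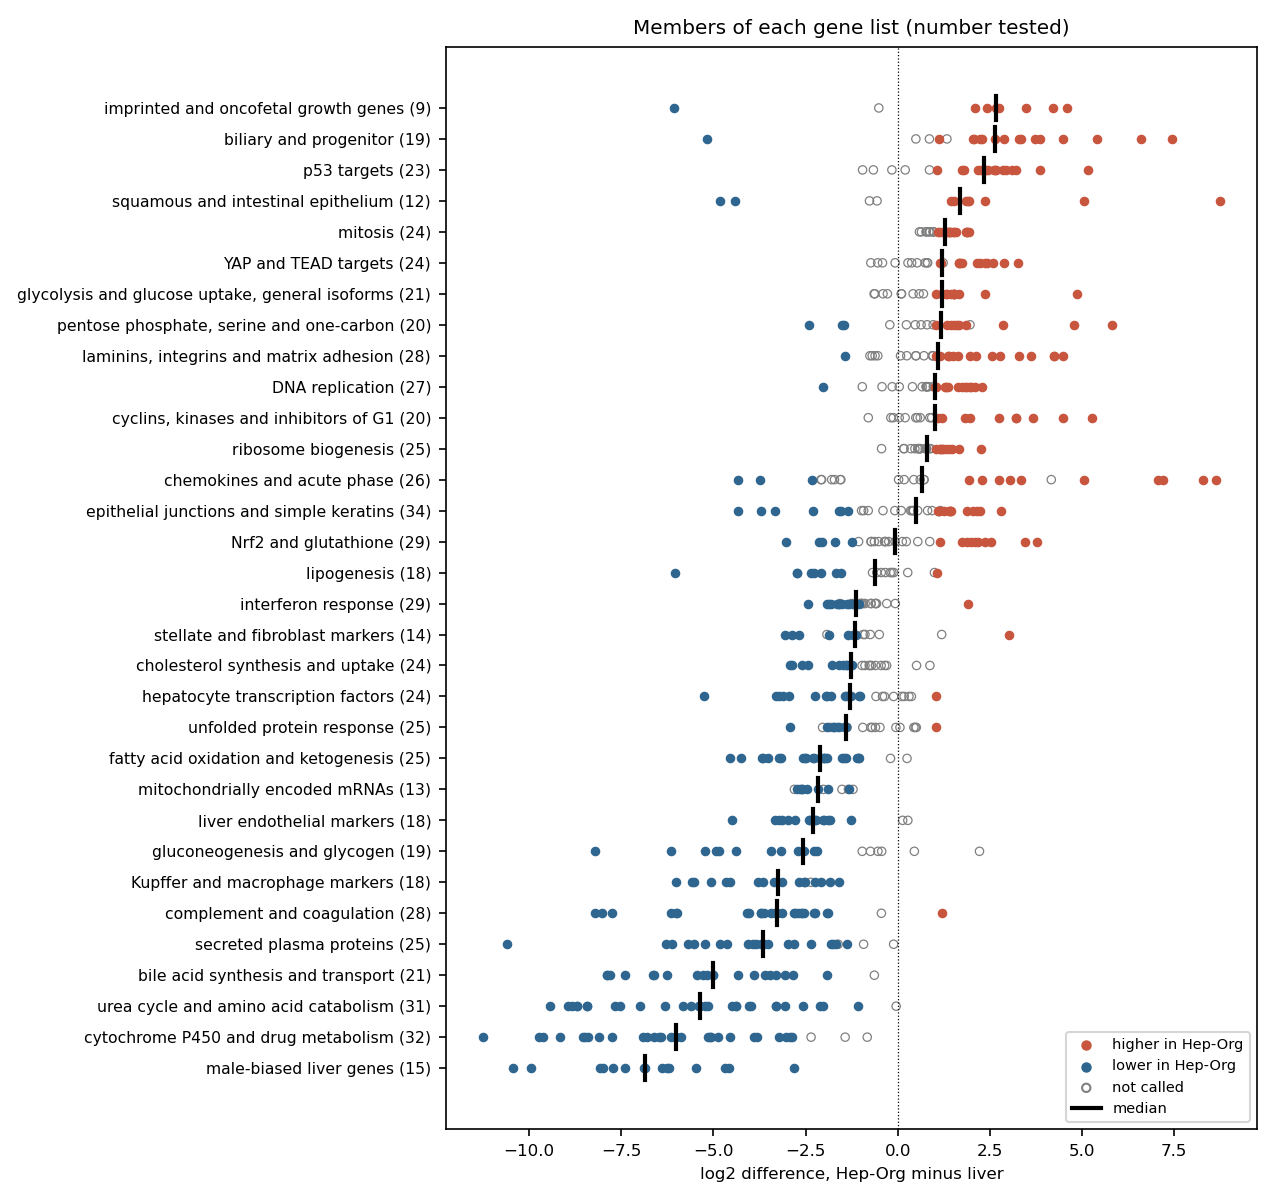
Log2 difference (Hep-Org minus liver, horizontal axis) of each tested member of the 32 gene lists with at least 9 tested members, ordered by median (black bar), with called members filled. The medians run from 2.66 for the 9 of 20 imprinted and oncofetal growth genes that passed the filter to -6.87 for male-biased liver genes.

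Genes of bile duct and progenitor cells rose in 15 of the 19 that passed the filter, of 24 listed. A gene that passed only because it was high in Hep-Org had to differ. This bears on this list, where 11 of the 19 tested did not reach 1 FPKM in 2 liver libraries and so passed through Hep-Org. It bears as well on the lists of squamous, fetal and cell cycle genes, and in part on other lists marked below. A looser setting, called no filter here and below, asked only for a value above 0 in 2 libraries, and 23575 genes were tested. A gene above 0 in Hep-Org alone could still enter it. With no filter in this sense, 15 of the 24 were called higher and 1 lower, where 6.66% of all genes were higher and 7.47% lower. These 2 shares apply to every count with no filter below. Sox4, a factor of embryonic progenitors, was at 14.1 and 15 FPKM in Hep-Org, against 0.0203, 0.068 and 0.176 FPKM in liver (3.85 ± 0.13, adjusted p = 2.04e-07). Cd24a, a surface protein of progenitor cells, was at 55 and 65.4 FPKM in Hep-Org, against 0.0378, 0.553 and 0.926 FPKM in liver (5.41 ± 0.26). Tspan8 was at 163 and 75.7 FPKM in Hep-Org, against 0.0239, 0.0843 and 0.413 FPKM in liver, and the hyaluronan receptor Cd44 at 42.3 and 30.7 FPKM, against 0.302, 2.18 and 4.76 FPKM. The water channel Aqp1 was the member that fell, to 0.139 and 0.0598 FPKM in Hep-Org, against 12.8, 46.1 and 61 FPKM in liver (-5.18 ± 0.50), and it is also known in endothelial cells. Clu was not called (1.33), and it passed without undamaged replicate 2 (1.67, adjusted p = 0.00207), against 14 d and 21 d liver alone (1.66, adjusted p = 0.00452), in the fit of all 20 libraries with a term for submission (1.33, adjusted p = 0.0431) and at the same FPKM sum (2.83, adjusted p = 9.2e-05). Of 34 genes of squamous and intestinal epithelium only 12 passed the filter, 7 of them through Hep-Org, so no count over these 12 is read as a result. With no filter 26 were tested, of which 7 were called higher and 2 lower. Ly6d, a surface protein of stratified epithelium, was at 142 and 82.5 FPKM in Hep-Org, against 0.262, 1.73 and 28.4 FPKM in liver (5.04 ± 0.99). Gpx2, the glutathione peroxidase of the gut, was at 3.75 and 5.15 FPKM in Hep-Org, against 0, 0 and 0.289 FPKM in liver (2.37 ± 0.18, adjusted p = 9.08e-06). The villus actin binder Vil1 (1.86 ± 0.33) and the cornified envelope protein Ivl (1.90 ± 0.21) rose too. The intestinal fatty acid binder Fabp2, also a liver transcript here, fell to 0.213 and 0 FPKM in Hep-Org, against 14.7, 30.2 and 62.1 FPKM in liver. The basal keratin Krt14 was listed at 0 in both Hep-Org libraries, and the basal keratin Krt5 and the intestinal factor Cdx2 did not reach the filter.

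Junction genes went both ways, in a table where 13.4% of all genes rose and 16.5% fell. Of the 34 tested, 6 passed the filter through Hep-Org, and with no filter 11 of 38 were called higher and 7 lower. Of 34, 13 rose and 7 fell (median 0.48), with 7 higher without Hep-Org replicate 1 and 9 higher without replicate 2. Cldn4 and Cldn7, claudins of duct-type epithelium, were at 4.71 and 7.92 and at 3.65 and 3.57 FPKM in Hep-Org, against highest liver values of 0.101 and 0.164 FPKM. Their differences were 2.80 ± 0.18 (adjusted p = 3.99e-06) and 2.14 ± 0.15 (adjusted p = 5.26e-06). Cldn1, a claudin of hepatocytes, fell to 0.132 and 0.231 FPKM in Hep-Org, against 7.84, 25.1 and 41.5 FPKM in liver (-4.33 ± 0.51). The gap junction subunits Gjb1 (37.4 and 30.7 FPKM in Hep-Org, against 311, 404 and 929 FPKM in liver) and Gjb2 (-3.34 ± 0.56) fell as well. Elf3, an epithelial ETS factor, rose to 4.43 and 6.22 FPKM in Hep-Org, against 0.0918, 0.303 and 0.829 FPKM in liver (2.24 ± 0.22). Cdh1, E-cadherin, was at 44.2 and 35.5 FPKM in Hep-Org, against 7.5, 14.7 and 24.9 FPKM in liver, and its call was lost in 7 other settings. Among these were undamaged liver alone (0.65, adjusted p = 0.167), voom on the recovered reads (1.48, adjusted p = 0.0697) and the fit without 14 d replicate 2 (adjusted p = 0.055). The fits without Hep-Org replicate 1 (1.27) and without replicate 2 (1.58) were among them too.

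Receptors and ligands of the basement membrane rose in 15 of 28 genes and fell in 1 (median 1.09), beside 13.4% and 16.5% of all genes. Of the 28, 5 passed the filter through Hep-Org, and with no filter 14 of 36 were called higher and 1 lower. The collagen- and laminin-binding integrin chains Itga2 and Itga3 were at 30.7 and 15.6 and at 64.5 and 25.8 FPKM in Hep-Org, against 0, 0.0158 and 0.0891 and 0.756, 1.27 and 1.67 FPKM in liver. Their differences were 4.48 ± 0.22 (adjusted p = 7.44e-07) and 4.25 ± 0.31 (adjusted p = 8.39e-06). The laminin chain Lama5 was at 10.3 and 11.5 FPKM in Hep-Org, against 0.0771, 0.237 and 0.331 FPKM in liver (3.29 ± 0.14), and the laminin-binding linker Nid1 at 89.7 and 33.3 FPKM, against 0.527, 2.24 and 3.2 FPKM. The main beta chain Itgb1 was not called at 86.9 and 54.9 FPKM in Hep-Org, against 41.7, 46 and 72.8 FPKM in liver. Fermt2, an integrin activator, fell (-1.43 ± 0.26). Target genes of YAP and TEAD, the factors of the Hippo pathway that respond to cell shape and matrix, rose in 13 of 24 cases and fell in none (median 1.21, with 10 of the 24 passing the filter through Hep-Org, and 13 of 28 called higher with no filter), with 20 higher at the same FPKM sum. Of those not called, Dlc1 and Nuak2 were lower at an unadjusted p under 0.05, and voom on the recovered reads called 0 lower. Ankrd1 was at 10.6 and 7.66 FPKM in Hep-Org, against 0, 0 and 0.362 FPKM in liver (3.25 ± 0.19, adjusted p = 1.89e-06), and the AP-1 subunit Fosl1 at 8.03 and 5.37 FPKM, against 0, 0.0269 and 0.0745 FPKM (2.88 ± 0.17). The epidermal growth factor receptor ligand Areg was at 7.06 and 3.51 FPKM in Hep-Org and listed at 0 in all 6 liver libraries. Tead2 rose to 6.11 and 3.99 FPKM in Hep-Org, against 0.068, 0.0938 and 0.162 FPKM in liver (2.43 ± 0.17), whereas Yap1 itself was not called (7.56 and 8.21 FPKM in Hep-Org, against 4.73, 5.12 and 5.77 FPKM in liver).

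Cell cycle genes rose in part and to a modest level, in a table where 13.4% of all genes rose and 16.5% fell. Of 35 listed replication genes 27 passed the filter, 9 of them through Hep-Org, and with no filter 14 of the 35 were called higher and 1 lower. Of 35 mitosis genes 24 passed, 19 of them through Hep-Org, and with no filter 15 of the 35 were called higher and the other 20 were not called. Against undamaged liver alone 6 mitosis genes were called higher, and 5 were in the fit of all 20 libraries with a term for submission. At the same FPKM sum all 24 mitosis genes that passed the filter were called higher. The helicase subunit Mcm7 was at 10.1 and 10.6 FPKM in Hep-Org, against 2.01, 2.25 and 3.14 FPKM in liver (1.74 ± 0.17, adjusted p = 5e-05), and Uhrf1, which maintains DNA methylation at the fork, at 5.54 and 3.79 FPKM, against 0.0573, 0.146 and 0.367 FPKM (2.28 ± 0.17). Mcm2 rose by 1.97 ± 0.16 and the spindle checkpoint kinase Bub1b by 1.31 ± 0.20. Mcm10, a replication initiation factor, was the member that fell (0.509 and 0.62 FPKM in Hep-Org, against 2.11, 4.89 and 14 FPKM in liver). Among 20 genes of G1 control 10 rose and none fell (median 1.01), cyclins and inhibitors alike, while Rbl2, a brake on the cycle, was lower at an unadjusted p under 0.05 and was the 1 gene called lower by voom. Of the 20, 5 passed the filter through Hep-Org, and with no filter 10 of 22 were called higher. Cyclin D1, Ccnd1, was at 61.1 and 83.1 FPKM in Hep-Org, against 1.32, 5.59 and 8.08 FPKM in liver (3.68 ± 0.47, adjusted p = 0.000271), and Ccnd2 at 15.9 and 12.6 FPKM, against 0.264, 0.619 and 1.21 FPKM (3.22 ± 0.21). Inhibitors of the cyclin D kinases rose as well. Cdkn2b, which encodes p15, was at 49.4 and 33.8 FPKM in Hep-Org, against 0, 0.0644 and 0.322 FPKM in liver (5.26 ± 0.18, adjusted p = 2.04e-07). Cdkn2a, the locus of p16 and Arf, was at 19.5 and 29.5 FPKM in Hep-Org, against 0, 0.0208 and 0.819 FPKM in liver (4.47 ± 0.26, adjusted p = 2.05e-06). Myc, a growth factor-induced transcription factor, rose to 15.9 and 13.1 FPKM in Hep-Org, against 0.699, 1.45 and 2.43 FPKM in liver (2.75 ± 0.27). Of 25 ribosome biogenesis genes 10 rose and none fell (median 0.78, with 0 lower at an unadjusted p under 0.05 and 0 by voom), with 5 without Hep-Org replicate 1 and 25 at the same FPKM sum. The nucleolar proteins Npm1 (2.26 ± 0.40), Nop56 (1.67 ± 0.29) and Mybbp1a (1.40 ± 0.21) were among those that rose.

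Targets of p53 rose in 18 of 23 cases and none fell (median 2.35), against 13.4% of all genes that rose. Of the 23, 8 passed the filter through Hep-Org, and with no filter 18 of 24 were called higher. Sesn1, a stress-induced regulator, was lower at an unadjusted p under 0.05 and was the 1 gene called lower by voom (0.966 and 1.21 FPKM in Hep-Org, against 2.24, 3.07 and 3.89 FPKM in liver). Phlda3, an Akt inhibitor, was at 35.8 and 69.6 FPKM in Hep-Org, against 0.0313, 0.418 and 0.944 FPKM in liver (5.16 ± 0.29, adjusted p = 1.57e-06). Cdkn1a, which encodes the kinase inhibitor p21, was at 28.1 and 41.4 FPKM in Hep-Org, against 0.378, 2.68 and 10.1 FPKM in liver (3.20 ± 0.74, adjusted p = 0.00665). Mdm2, the ubiquitin ligase that limits p53, was at 26.1 and 32.4 FPKM in Hep-Org, against 3.9, 4.86 and 6.22 FPKM in liver (2.33 ± 0.19). For these 3 genes neither Hep-Org library overlapped with liver. The death receptors Tnfrsf10b (2.86 ± 0.15, adjusted p = 1.03e-06) and Eda2r (2.93 ± 0.16, adjusted p = 1.39e-06), the microtubule protein Gtse1 (3.86 ± 0.21) and the death effectors Bax (2.46 ± 0.37) and Pmaip1 (2.63 ± 0.30) rose as well. Fas (9.28 and 17.2 FPKM in Hep-Org, against 9.8, 12.4 and 37.6 FPKM in liver) and Perp (67.5 and 64.2 FPKM in Hep-Org, against 47.7, 54.7 and 83.4 FPKM in liver) were not called. Without Hep-Org replicate 1 and without replicate 2, 16 of the 23 were called higher each time, in fits where liver alone gave the spread.

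Sugar metabolism shifted between isoforms, in a table where 13.4% of all genes rose and 16.5% fell. Of the glycolysis genes of general isoforms 4 passed the filter through Hep-Org, and with no filter 12 of 24 were called higher and 0 lower. Of 21 glycolysis genes of general isoforms 12 rose and none fell (median 1.20, with 0 lower at an unadjusted p under 0.05 and 0 by voom), with 8 without Hep-Org replicate 2. The muscle-type pyruvate kinase Pkm was at 96.2 and 192 FPKM in Hep-Org, against 0.566, 3.81 and 10.4 FPKM in liver (4.86 ± 0.63, adjusted p = 0.000272). Gpi1, the second step of glycolysis, was at 39.3 and 54.7 FPKM in Hep-Org, against 12.2, 15.1 and 20.4 FPKM in liver (1.52 ± 0.25), and Pfkl, the phosphofructokinase of liver, at 13.4 and 10.6 FPKM, against 2.49, 3.58 and 4.61 FPKM (1.52 ± 0.23). Ldha was not called at 183 and 205 FPKM in Hep-Org, against 167, 230.1 and 353 FPKM in liver. Of 20 genes of the pentose phosphate pathway, serine synthesis and one-carbon metabolism 10 rose and 3 fell (median 1.18), beside 13.4% and 16.5% of all genes. Of the 20, 8 passed the filter through Hep-Org, and with no filter 11 of 21 were called higher and 3 lower. Phgdh was at 106 and 37.7 FPKM in Hep-Org, against 0, 0.12 and 0.392 FPKM in liver, and Psat1, the next enzyme of serine synthesis, at 40.5 and 30 FPKM, against 0.0688, 0.21 and 1.24 FPKM (4.77 ± 0.28, adjusted p = 1.93e-06). G6pdx, which opens the pentose phosphate pathway, was at 12.9 and 31.4 FPKM in Hep-Org, against 1.31, 1.73 and 3.43 FPKM in liver (2.87 ± 0.34). The enzymes that fell were Shmt1 (-2.41 ± 0.36), Shmt2 (-1.46 ± 0.33) and Mthfd1 (-1.53 ± 0.34), which move one-carbon units between serine, glycine and folate.

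Ratios of isoforms or paralogs within a library hardly depend on the scaling between libraries while both genes are well above 0.1 FPKM. For 15 pairs log2 ratios of FPKM + 0.1 were compared, so a ratio with a gene near 0 still moves with that scaling. An exact permutation test of 2 against 6 libraries has 28 splits and cannot give a two-sided p below 0.0714, so no pair could pass 0.05, and the values are the description. The glucose transporters Slc2a1 over Slc2a2 gave 5.25 and 6.08 in Hep-Org, against -5.34 to -1.50 in liver. In this pair the gene that led in liver trailed in Hep-Org. The fatty acid binders Fabp5 over Fabp1 (4.29 and 5.02 in Hep-Org, against -9.93 to -4.45 in liver), the methionine adenosyltransferases Mat2a over Mat1a (4.40 and 3.09, against -7.29 to -3.52) and Pkm over Pklr (1.02 and 1.85, against -6.15 to -0.55) turned over in the same way. Pklr itself was at 47.4 and 53.1 FPKM in Hep-Org, against 15.4, 35.6 and 84.2 FPKM in liver, and was not called as deposited. The desaturases Scd2 over Scd1 drew level, at -0.04 and -1.01 in Hep-Org, against -11.59 to -7.41 in liver, as Scd2 rose to 105 and 79.1 FPKM in Hep-Org, against 0.152, 1.02 and 1.62 FPKM in liver (5.58 ± 0.29, adjusted p = 1.14e-06). The factors Onecut2 over Onecut1 gave 3.55 and 3.63 in Hep-Org, against -0.35 to 3.24 in liver, and the cadherins Cdh1 over Cdh2 1.88 and 1.93 in Hep-Org, against -0.61 to 1.07 in liver. In 13 of the 15 pairs both Hep-Org ratios lay above all 6 liver ratios (p = 0.0714, adjusted p = 0.0824, exact permutation test), Bcat1 over Bcat2 among them, where Bcat1 was at most at 0.109 FPKM in any library, so that its ratio carries little. Ccnd2 over Ccnd1 (-1.94 and -2.71 in Hep-Org, against -3.47 to -1.90 in liver, p = 0.571, exact permutation test) and Pfkp over Pfkl (-1.63 and -2.89, against -5.13 to -2.51, p = 0.214, exact permutation test) overlapped.

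**Figure D4:**
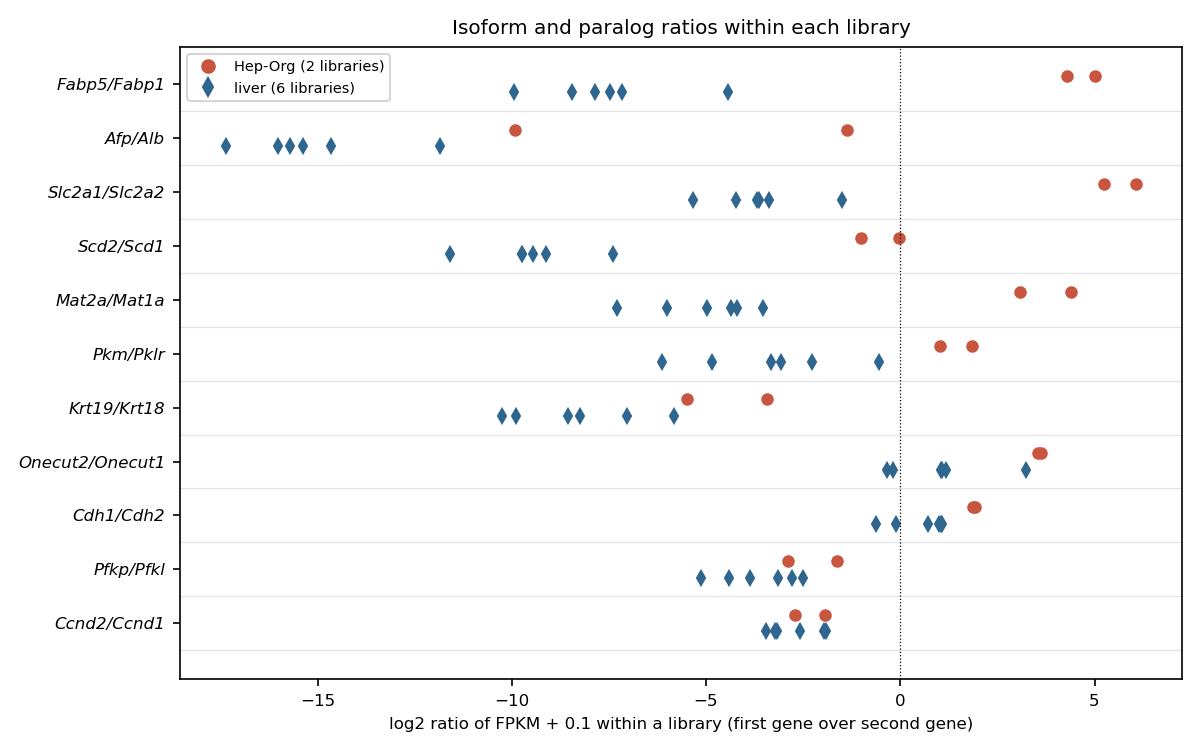
Log2 ratio of FPKM + 0.1 of 2 related genes within each library for 11 of the 15 pairs, with Hep-Org as circles (2 libraries) above liver as diamonds (6 libraries). Among the pairs plotted, Hep-Org and liver do not overlap except for Pfkp/Pfkl and Ccnd2/Ccnd1.

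Stress and inflammatory programmes split by pathway, in a table where 13.4% of all genes rose and 16.5% fell. In the Nrf2 and glutathione list 6 of the 29 genes passed the filter through Hep-Org, and with no filter 9 were called higher and 3 lower. Of 29 genes of the Nrf2 and glutathione list 10 rose and 5 fell, with a median of -0.07 that turned positive at the same FPKM sum (1.31), without Hep-Org replicate 1 (0.35), without undamaged replicate 2 (0.09) and without 14 d replicate 2 (0.02). Its count of lower genes was 1 without Hep-Org replicate 1 and 3 without Hep-Org replicate 2, 14 d replicate 2 or either 21 d replicate. The conjugate pump Abcc4 was at 11.8 and 24.5 FPKM in Hep-Org, against 0.0763, 0.391 and 0.518 FPKM in liver (3.79 ± 0.26, adjusted p = 5.15e-06), and Abcc1 at 3.15 and 4.93 FPKM, against 0.0194, 0.0797 and 0.256 FPKM (2.18 ± 0.18). The cystine importer Slc7a11 was at 1.92 and 10.3 FPKM in Hep-Org, against 0, 0 and 0.0066 FPKM in liver. The target genes Nqo1 (0.855 and 4.54 FPKM in Hep-Org, against 1.01, 2.75 and 9.88 FPKM in liver) and Hmox1 (7.78 and 11.3 FPKM in Hep-Org, against 1.89, 10.6 and 41.1 FPKM in liver) were not called. Of 25 genes of the unfolded protein response 7 fell and 1 rose, with a median of -1.39 that turned to 0.05 at the same FPKM sum, where 7 rose and 2 fell. The lower genes numbered 3 without Hep-Org replicate 1, 2 without Hep-Org replicate 2 and 12 without undamaged replicate 2. Herpud1, a degradation factor of the endoplasmic reticulum, was at 23.1 and 19 FPKM in Hep-Org, against 114, 157 and 258 FPKM in liver (-2.91 ± 0.33, adjusted p = 0.000129), and Sel1l, of the same route, fell by 1.41 on the log2 scale, though not at the same FPKM sum. The chaperone Hspa5 was not called at 135 and 90.7 FPKM in Hep-Org, against 164, 263 and 822 FPKM in liver.

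Interferon response genes fell in 13 of 29 cases and 1 rose (median -1.14), with 6 lower without Hep-Org replicate 1, 8 without replicate 2 and 4 at the same FPKM sum. The antiviral gene Rsad2 was at 0.0422 and 0.177 FPKM in Hep-Org, against 1.58, 2.22 and 2.74 FPKM in liver (-1.51 ± 0.18, adjusted p = 0.000198), and Mx2 at 0.127 and 0.277 FPKM, against 1.07, 2.21 and 2.62 FPKM (-1.33 ± 0.22), though Mx2 was not called at the same FPKM sum (-0.83). Irf9, a subunit of the interferon-stimulated factor, was at 2.09 and 2.91 FPKM in Hep-Org, against 5.24, 6.23 and 7.3 FPKM in liver (-1.06 ± 0.17), a difference that turned to 0.12 at the same FPKM sum. The gene that rose was the chemokine Cxcl10 (18 and 3.91 FPKM in Hep-Org, against 0.91, 1.66 and 2.13 FPKM in liver). Chemokines and acute-phase genes went apart within 1 list, with 10 of 26 higher and 3 lower (median 0.66), beside 13.4% and 16.5% of all genes. Of the 26, 5 passed the filter through Hep-Org, and with no filter 10 of 27 were called higher and 2 lower. Among chemokines Cxcl1 was at 129 and 124 FPKM in Hep-Org, against 5.18, 9.21 and 51.4 FPKM in liver (3.33 ± 0.67), and Cxcl2 at 26 and 53.4 FPKM, against 0, 0.112 and 0.622 FPKM (5.05 ± 0.27, adjusted p = 1.41e-06). The NF-kB feedback inhibitors Tnfaip3 (9.34 and 10.3 FPKM in Hep-Org, against 0.321, 0.622 and 0.962 FPKM in liver, 2.74 ± 0.17) and Nfkbia (1.93 ± 0.29) rose with them. Among acute-phase genes Saa3 was at 1047 and 2048 FPKM in Hep-Org, against 0.917, 3.09 and 1449.8 FPKM in liver, where undamaged replicate 2 alone exceeded 8.33 FPKM and overlapped with Hep-Org. Its difference of 7.20 ± 2.18 (adjusted p = 0.0235) was no longer called without Hep-Org replicate 1 (adjusted p = 0.104) or without replicate 2 (adjusted p = 0.138). Crp (8.27 and 10.3 FPKM in Hep-Org, against 105, 155 and 1279 FPKM in liver, -4.34 ± 0.82) and the iron hormone Hamp (-3.73 ± 1.24) fell. Saa1, Saa2 and Lcn2 were not called, and their liver values were wide apart, with undamaged replicate 2 highest in each case, as for Lcn2 at 1030.2 and 1384 FPKM in Hep-Org, against 2.16, 47.2 and 3502 FPKM in liver.

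Growth genes of fetal liver were mostly below the filter, and 9 of 20 entered the test. Of these, 4 passed through Hep-Org, so no count over the 9 is read as a result. With no filter 19 were tested, of which 7 were called higher and 1 lower. The chromatin proteins Hmga1 (117 and 56.8 FPKM in Hep-Org, against 1.85, 3.15 and 7.48 FPKM in liver, 4.21 ± 0.40) and Hmga2 (24.1 and 3.96 FPKM in Hep-Org, against 0, 0 and 0.0543 FPKM in liver) rose. Igf2bp2, an RNA-binding protein, was at 7.93 and 4.82 FPKM in Hep-Org, against 0.0974, 0.137 and 0.199 FPKM in liver (2.66 ± 0.18, adjusted p = 4.54e-06). The imprinted RNA H19 was at 73.4 and 14 FPKM in Hep-Org, against 0, 0.0844 and 4 FPKM in liver (4.59 ± 0.71). Alpha-fetoprotein, Afp, was at 3.17 and 33.6 FPKM in Hep-Org, against 0.164, 0.969 and 6.41 FPKM in liver. The groups overlapped for Afp, and its call (2.43 ± 0.81, adjusted p = 0.0337) was lost without Hep-Org replicate 2 (adjusted p = 0.417) and, at adjusted p of 0.0505 to 0.0564, without either undamaged library, 14 d replicate 2 or either 21 d library. The fetal RNA-binding genes Igf2bp1, Igf2bp3 and Lin28b did not reach the filter.

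Markers of the other cells of liver were set beside these lists. Of 18 Kupffer and macrophage markers 17 fell and none rose (median -3.25), with 10 lower without Hep-Org replicate 1, 8 without replicate 2 and none against undamaged liver alone. Their summed FPKM was 24.2 and 1.997 in Hep-Org, against 57.9 to 1379.7 in liver, lowest in undamaged replicate 1 and highest in undamaged replicate 2. The defining Kupffer receptor Clec4f was at 0 and 0.00795 FPKM in Hep-Org, against 9.16, 53 and 183 FPKM in liver (-5.58 ± 0.84, adjusted p = 0.000653), and Vsig4 and Timd4 were listed at 0 in both Hep-Org libraries. The 24.2 of Hep-Org replicate 1 was mostly lysozyme, Lyz2, at 16.9 and 0.254 FPKM in the Hep-Org libraries. Of 18 endothelial markers 16 fell (median -2.30), with Eng at 0.0509 and 0.034 FPKM in Hep-Org, against 4.45, 10.3 and 18.3 FPKM in liver (-3.34 ± 0.39) and Dnase1l3 listed at 0 in both Hep-Org libraries. Of 14 stellate and fibroblast markers 7 fell and 1 rose, with 3 lower without either Hep-Org replicate and 4 lower without 14 d replicate 2 or 21 d replicate 1. The summed FPKM of these markers was 89.6 and 54.4 in Hep-Org, against 13.0 to 151 in liver, so Hep-Org lay within the liver range. Colec10 and Colec11 fell (-2.86 ± 0.43 and -3.05 ± 0.60), and Vim, an intermediate filament that cultured epithelial cells also make, rose to 67.8 and 21.5 FPKM in Hep-Org, against 0.216, 4.73 and 10.9 FPKM in liver. Of 6 lymphocyte markers 1 fell, H2-Aa (-3.95 ± 0.76), which was not called against undamaged liver alone (adjusted p = 0.113), and the other 5 were not called, Cd74 among them (0.16). Of 5 erythroid markers 1 fell, Alas2 (-4.75 ± 0.33). Both are near the 16.5% of all genes that were lower. Summed lymphocyte and neutrophil markers of Hep-Org also lay within the liver range, and 0 of 6 neutrophil markers were called with limma, 0 at an unadjusted p under 0.05 and 0 by voom, and 1 was called without undamaged replicate 1. Kupffer and endothelial markers moved with the hepatocyte genes between the groups, and their part in the results for genes that such cells share with hepatocytes, interferon and antigen presentation genes among them, was not tested.

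The 2 Hep-Org libraries were alike over most genes, with Alb as the most abundant exception. Haptoglobin differed 1.04-fold between them, Ambp 1.03-fold and Hpx 1.33-fold. Of the tested genes 66 differed between them by at least 2 on the log2 scale, 26 higher in replicate 1 and 40 higher in replicate 2, against 380 between the undamaged, 84 between the 14 d and 92 between the 21 d replicates. Alb was 36.2-fold higher in replicate 1, as given above. Gstm1, a glutathione transferase, went the other way at 17.4 FPKM in replicate 1 and 329 FPKM in replicate 2, and the urate and phosphate transporter Slc17a1 at 0.28 and 39.7 FPKM. Igf2, the fetal growth factor, was at 9.07 FPKM in replicate 1 and 0.0275 FPKM in replicate 2, and Akr1b3, the aldose reductase, at 1.79 and 40.6 FPKM. Akr1b3 was called higher (2.39 ± 0.76) but not without replicate 2 (adjusted p = 0.192). The largest difference of all tested genes was that of the processed pseudogene Gm8730, at 5.16 FPKM in replicate 1 and 302 FPKM in replicate 2. The test pools the spread of both groups, so a gene such as Akr1b3 could be called although its Hep-Org replicates differed 22.7-fold.

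**Figure D5:**
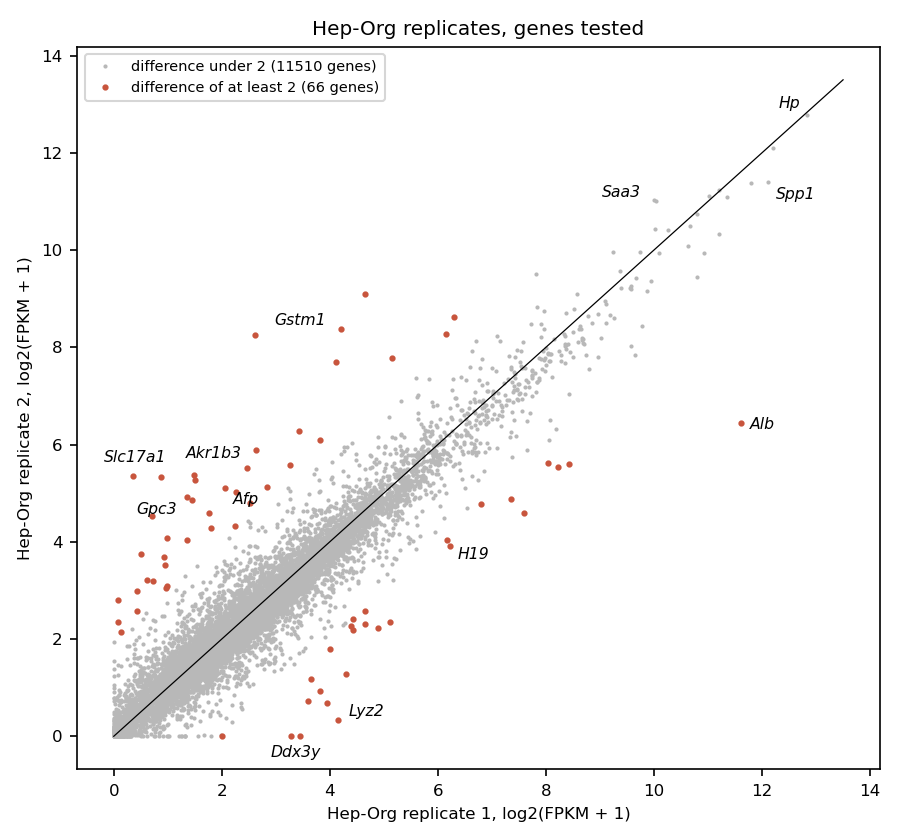
Level of each of the 11576 tested genes on the log2(FPKM + 1) scale in Hep-Org replicate 1 (horizontal axis) and replicate 2 (vertical axis), with the line of equal level. The 66 genes that differ by at least 2 are coloured, with Alb (3132 and 86.4 FPKM) on the side of replicate 1 and Gstm1 (17.4 and 329 FPKM) on the side of replicate 2.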

How the data were processed

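RNA sequencing of mouse liver and of Hep-Org was used, 1 library per sample. The authors deposited FPKM values, 1 table of 20 libraries, and the submitters' processing notes list HISAT2 2.0.5 and mm10. How reads were counted, with which annotation and strand setting, and how libraries were scaled are not given in the sources used, so reads of antisense neighbours cannot be told apart. Low values were whole multiples of 1 read in 97.9% to 98.7% of cases (tolerance 0.05 reads, up to 20 reads), from which the depth was recovered. Counting error limits low genes most.

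The 11576 genes with FPKM of at least 1 in 2 or more of the 8 libraries were tested on log2(FPKM + 1) with limma 3.58.1 in R 4.3.3 (trended, robust moderation, Benjamini-Hochberg), 2 Hep-Org against 6 liver libraries as 1 group, so that changes between undamaged, 14 d and 21 d liver count as spread. A log2 difference of FPKM + 1 understates the change of low genes. On simulated data with 200 changed genes among 10438, the test called 74.7% of genes changed by 2 on the log2 scale. It also called a mean of 7 unchanged genes there. With changes of 4 it called 96.6% of the changed genes and a mean of 9.4 unchanged ones. In data without change it called 0 genes. The 200 changed genes were fewer than the 3458 called in the comparison, and a simulation with as many was not tested. Ratios of gene pairs were tested with an exact permutation test (Python 3.11.15, scipy 1.17.1). Gene symbols and positions came from GENCODE M21 and promoter sequences from RefSeq.

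The text names the 12 largest called differences each way without overlap (mean FPKM of at least 5, no predicted genes), up to 3 members of each of 36 gene lists by the size of the test statistic, the 10 most abundant genes, genes on in one group only, genes that differ between the Hep-Org replicates, and the pairs. Some genes that these rules named, with 3 of the 15 pairs, are not reported here. Other members were named to show a group's range or the genes not called, a choice made with their values in view. The members and lists were chosen with earlier results of these data known. Alternatives were another pseudocount, other filters, scalings and moderation, other sets of liver libraries, a replicate block, voom on the recovered reads, and leaving out each library. With 1 Hep-Org library left, that library is assumed to vary as the liver libraries do. Counts of list members under these settings were added after seeing the data.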

Additional observations from a re-analysis of the deposited data

Results flagged for a closer look

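In 18 of 161 genes checked, 1 of the 6 liver libraries stood apart from the others by more than Dixon's limit (0.625 of the range). Chance alone passes this limit for about 1 in 20 genes only if the 6 values come from 1 normal distribution. The liver libraries were of different groups and submissions. Several of the 18 genes were below 1 FPKM even in the library that stood apart, where few reads set the range. The count is thus not set against that rate. Undamaged replicate 2 held 8 of the 18 genes, undamaged replicate 1, 14 d replicate 1 and 14 d replicate 2 held 3 each, and 21 d replicate 1 held 1.

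Undamaged replicate 2 was highest for 3 secreted proteins that hepatocytes make in the acute phase or at high level. Saa3 was at 1450 FPKM there, against 0.917 to 8.33 FPKM in the other 5 liver libraries, Clu at 2262 FPKM, against 482 to 591 FPKM, and Serpina3k at 22735 FPKM, against 7469 to 9091 FPKM. It was also the highest, though near 0, for Ccl20 (0.129 FPKM, against at most 0.0450 FPKM), Cdh17 (0.0205 FPKM, with 0 in the others), Cldn4 (0.101 FPKM, against at most 0.0352 FPKM), Abcc1 (0.256 FPKM, against 0.0194 to 0.0932 FPKM) and Cxcl2 (0.622 FPKM, against at most 0.186 FPKM). Undamaged replicate 2 also had the highest FPKM sum. Setting all libraries to the same sum divided its values by 2.58, and those of the other liver libraries by 1.02 to 1.22. The part of this scaling in its high values was not tested.

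Undamaged replicate 1 was lowest for genes of antigen presentation and of sinusoidal endothelium, with H2-Aa at 1.74 FPKM, against 16.4 to 24.9 FPKM in the other 5, Cd74 at 7.47 FPKM, against 65.0 to 111 FPKM, and Fcgr2b at 3.48 FPKM, against 9.24 to 14.5 FPKM. Liver at 14 d, replicate 1, was highest for Afp (6.41 FPKM, against 0.164 to 1.22 FPKM), Psat1 (1.24 FPKM, against 0.0688 to 0.316 FPKM) and Gpx2 (0.289 FPKM, against at most 0.0199 FPKM). Replicate 2 of 14 d was highest for Cdkn2a (0.819 FPKM, against at most 0.104 FPKM), Cdkn2b (0.322 FPKM, against at most 0.0915 FPKM) and Ankrd1 (0.362 FPKM, with 0 in the others). Replicate 1 of 21 d was highest for Eda2r (0.194 FPKM, against 0.0716 to 0.115 FPKM). Of these 18 genes, Saa3 and Afp were called although Hep-Org and liver overlapped, Clu and Cd74 were not called, and for the other 14 both Hep-Org libraries lay outside the range of all 6 liver libraries.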

How the results depend on the processing

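Of the 20 libraries, the 8 used here gave 1547 genes higher and 1911 lower in Hep-Org. Of the 21 other settings, the same FPKM sum (6364 higher, 939 lower) and a filter of FPKM of at least 5 (844 higher) moved these counts by over 1.5 times. At the same FPKM sum 87.1% of the calls were higher, against 44.7% as deposited. Leaving out 1 library gave 1211 to 1620 genes higher and 1318 to 1950 lower, with the lowest counts without Hep-Org replicate 1. voom on the recovered reads called 2290 higher and 2401 lower, and undamaged liver alone as the comparison 1064 higher and 1327 lower. The libraries of the first submission alone gave 1427 higher and 1751 lower, and all 20 libraries with a term for submission gave 1473 and 1871. Replicates with the same number deviated together only between 14 d and 21 d (correlation 0.394), while the values with Hep-Org were -0.0537 to 0.00294, so the numbers do not pair Hep-Org with liver. At 14 d and 21 d replicate number and submission coincide and cannot be told apart. A replicate block gave 1543 higher and 1918 lower. Among named genes the direction turned for Irf9 (0.12) and Ambp (1.38) at the same FPKM sum and for Slc17a1 without Hep-Org replicate 2 (-2.27, against 2.72 without replicate 1). The mean log2 ratio of Ccnd2 to Ccnd1, negative in every library, was 0.39 higher in Hep-Org than in liver as deposited, and this difference of ratios was -0.46 with a pseudocount of 1 and -0.39 against undamaged liver alone. At the same FPKM sum the decreases of Apob, Fermt2, Fga, Fgb, Gc, Hamp, Hnf4a, Glud1, Mthfd1, Mx2, Sel1l, Serpina1b, Shmt1 and Shmt2 were no longer called, and Cdh2, Clu, Eef1a1, Fas, Fasn, Foxa1, Foxa2, Fth1, Hp, Itgb1, Lcn2, Ldha, Mat2a, Nr5a2, Onecut2, Perp, Pklr, Rplp1 and Yap1 were called higher. Against undamaged liver alone 26 of 168 genes that the naming rules chose lost their call, with 2 libraries a group, and 13 and 12 did so without Hep-Org replicate 1 and replicate 2. The cause was not tested, beyond the smaller number of samples in those fits. The deposited values do not say how much RNA a cell held, so neither scaling can be preferred from them. With 2 Hep-Org libraries, differences of less than about the spread between them cannot be resolved.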

Other observations

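Of 10319 protein-coding genes tested, 1356 were higher in Hep-Org and 1730 lower, beside 13.4% higher and 16.5% lower over all genes. Of 494 processed pseudogenes tested, 93 were higher in Hep-Org and 33 lower, of 68 snoRNA genes 17 were higher and 1 lower, of 130 antisense genes 10 were higher and 34 lower, and of 174 lincRNA genes 26 were higher and 49 lower. No difference between these gene types was tested. Processed pseudogenes share sequence with their parent genes, and short or antisense genes share reads with host genes, so these counts may include reads of other genes. Malat1, an abundant nuclear RNA, was at 111 and 149 FPKM in Hep-Org, against 4.38, 10.2 and 81.6 FPKM in liver (lowest, median and highest), a log2 difference of 3.33 (adjusted p = 0.0159, limma). Both Hep-Org libraries lay above all 6 liver libraries for Malat1. It was chosen for mention after its values were seen.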
